A study of Sus scrofa with 4 samples.

Results

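The Kruppel-like factors (KLFs) are transcription factors that were measured here in porcine intramuscular preadipocytes and in adipocytes derived from them. The family was taken as the non-control probes of the array whose gene name was KLF1, KLF2, KLF4, KLF6, KLF7, KLF9, KLF10, KLF11, KLF12 or KLF15. These 10 genes, of 34853 gene names on the array, were covered by 39 of 43603 probes. Of the 39 probes, 28 carried a RefSeq accession that leads to the same symbol and 11 carried none, and no probe led to another gene.

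Gene expression was measured on 4 arrays, 1 for each condition. PIP cells are a single preadipocyte line from the longissimus thoracis muscle of a Duroc pig, used between passages 26 and 35 and kept in growth medium with fetal calf serum. Adipocytes (pMA) were PIP cells fed after confluence for 4 days with a differentiation medium that held insulin, the synthetic glucocorticoid dexamethasone, octanoate and oleate. Stimulated pMA received in addition serotonin (5-HT) at 100 μM or TNF-α at 2.5 µg/mL, each for 12 h. RNA was pooled within each condition before labelling, so each array gives 1 value for a pool, and no difference has a replicate check or a p-value. Condition and array cannot be told apart. A bulk signal also cannot separate fewer cells of a type from less RNA per cell.

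Every KLF binds GC-rich or CACCC-type DNA through a zinc finger domain at its C-terminal end, while the other regions of the proteins differ and recruit either activators or repressors. The family is known in fat cells for both roles. KLF4, KLF6, KLF9 and KLF15 are known to promote adipogenesis, KLF2 and KLF7 are known to restrain it, and KLF10 and KLF11 were named for their rapid induction by TGF-β. KLF9 and KLF15 are established glucocorticoid receptor targets, and KLF1 is the factor of red blood cells.

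The probes were 60 bases long, and each reads a short stretch of its transcript. Some fall on the zinc finger codons, where members resemble each other, so 2 pairs of them are printed to show how far a probe of one KLF matches another. The probes for KLF9 and KLF11 start at positions 453 and 1307 of their transcripts and cover the first finger, and those for KLF4 and KLF7, at positions 1996 and 1052, cover the end of the last finger with the stop codon. Sequences run 5′ to 3′, and capitals mark the bases that are identical between the members of a pair at aligned positions.
KLF9: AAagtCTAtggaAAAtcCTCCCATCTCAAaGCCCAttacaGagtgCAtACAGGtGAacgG
KLF11: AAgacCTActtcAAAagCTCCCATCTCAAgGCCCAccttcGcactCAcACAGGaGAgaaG
KLF4: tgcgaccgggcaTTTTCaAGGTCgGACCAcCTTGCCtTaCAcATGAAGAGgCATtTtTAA
KLF7: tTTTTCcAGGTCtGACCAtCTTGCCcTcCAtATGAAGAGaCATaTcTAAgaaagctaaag
The KLF9 and KLF11 probes shared 36 of 60 bases, with a longest common run of 12 bases. The KLF4 and KLF7 probes shared 39 of 49 aligned bases, with a longest common run of 8 bases. Of the 651 pairs of probes from different members, these 2 were the most alike, and the next pair shared 21 of 40 bases. No probe of another gene name on the array held a run of 30 bases in common with a member's probe. Within a gene, 5 pairs of probes overlapped by 26 to 49 bases, 3 of them at the distal end of KLF9 and 1 each in KLF4 and KLF7, so these are repeat readings of 1 stretch rather than separate evidence.

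Intensities are given first as scanned and background-corrected units. For comparison between arrays they were placed on a log2 scale relative to the 75th percentile of the array, which was 515 in PIP cells, 479 in pMA, 566 after serotonin and 559 after TNF-α. All 4 arrays were on 1 slide, no spot was saturated, and the share of probes well above background ran from 56.5% to 66.0%. On the scaled log2 scale the bright spike-in controls differed from pMA by 0.35 in PIP cells, -0.11 after serotonin and -0.09 after TNF-α. The scanner's error model gave a member's log2 ratio an error of 0.20 to 0.30, which covers spot noise within an array and not the spread between cultures. Below, arrays are said to lie within the error where their difference was under 1.96 of these errors. Differences of at least 2-fold, the cutoff of the methods, were counted. Of the 39 probes, 33 were well above background on all 4 arrays and 1 probe of KLF1 on none.

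**Figure D1:**
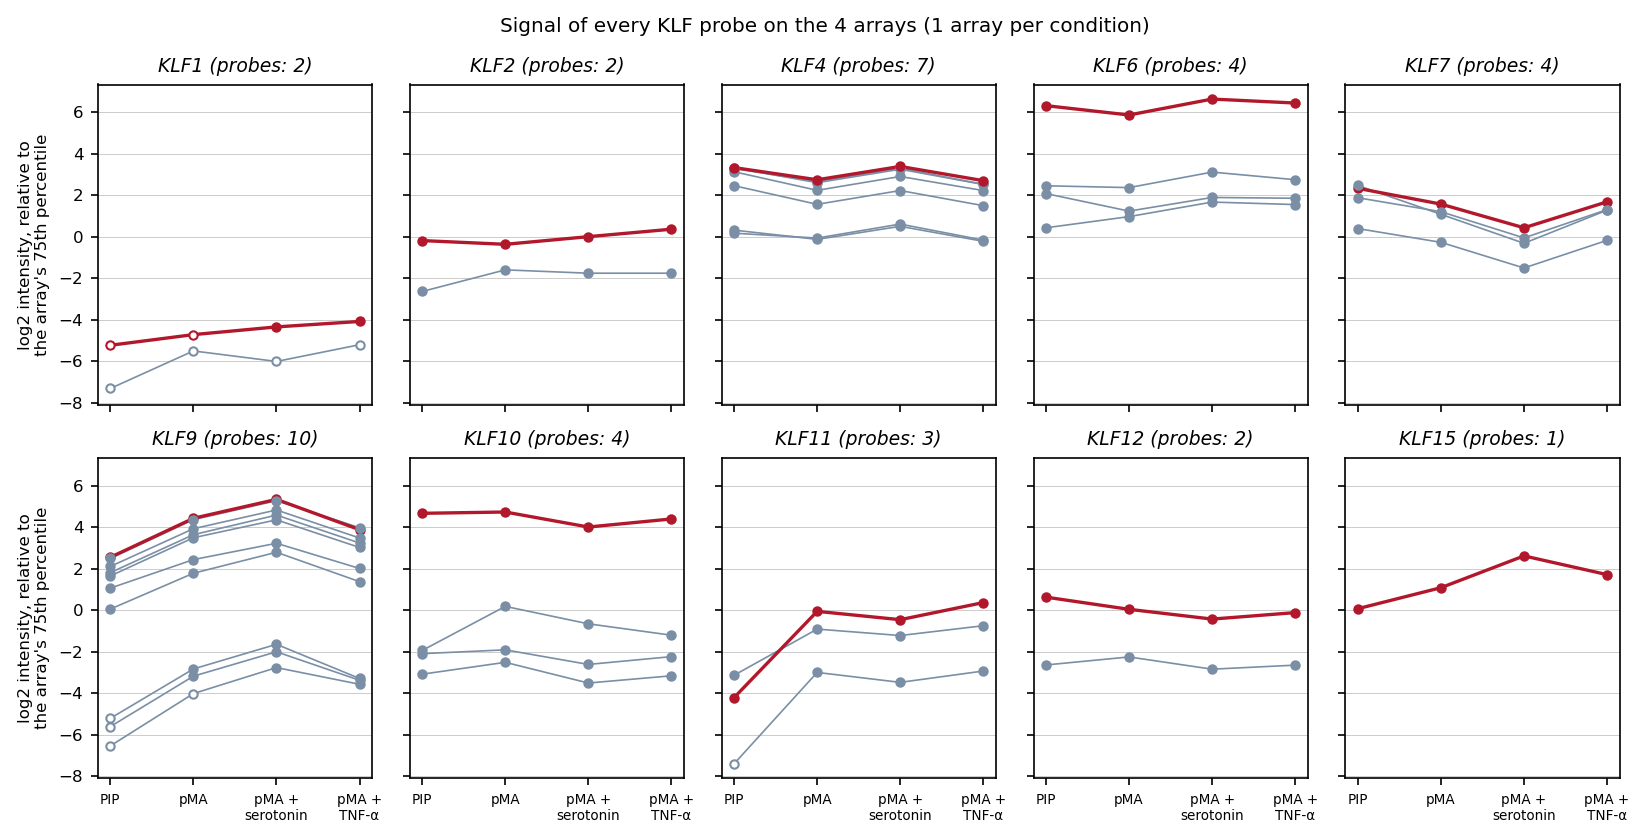
Scaled log2 intensity of each KLF probe (y axis, relative to the 75th percentile of its array) on the 4 arrays (x axis), with 1 line per probe. The red line is the brightest probe of a gene, which represents it, and open points were not well above background. The 10 probes of KLF9 peak after serotonin, and the 4 probes of KLF7 reach their lowest point there.

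With differentiation, KLF9, KLF11 and KLF15 were higher in pMA than in PIP cells by at least 2-fold, and no member was lower by that much. These were 3 of the 9 members with a ratio, against 13.5% of all 18633 gene names (9.94% higher and 3.56% lower). With scaling to the array median 2 members were higher and 1 lower, KLF7 at -1.11, against 13.2% of all gene names. The remaining 6 lay between -0.76 (KLF7) and 0.06 (KLF10) on the log2 scale. The median log2 ratio of the members was -0.18, and that of all gene names was 0.12. When each probe was counted, 16 of 36 probes with a ratio differed at least 2-fold, against 13.1% of all probes, but 9 of the 16 belonged to KLF9 and 3 to KLF11.

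KLF11, a repressor that recruits the SIN3 complex, had the greatest range over the 4 arrays, 4.58 on the log2 scale. Its brightest probe, at position 2010, gave 27.8 units in PIP cells, 460 in pMA, 412 after serotonin and 721 after TNF-α. PIP cells stood far below the other 3 arrays, with a dim signal that was still well above background. The log2 ratio of pMA to PIP cells was 4.15, or 17.8-fold, and 11 gene names had a higher one. With normexp background correction this log2 ratio was 2.51. The size differed between probes. The zinc finger probe printed above gave 58.7, 255, 243 and 333 units in the same order and a log2 ratio of 2.22. At position 3368 the PIP signal of 3.06 units was too dim to measure, which bounds the difference at 4.38-fold or more. The order of the arrays, with PIP cells lowest, then serotonin, pMA and TNF-α, was the same in all 3 probes, although pMA and serotonin lay within the error at each probe, and pMA and TNF-α at 2 of the 3.

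KLF9, which takes part in the early steps of adipogenesis, gave 3016 units in PIP cells, 10291 in pMA, 22893 after serotonin and 8226 after TNF-α at its representative probe. The 4 arrays were all apart by more than the error, with PIP cells lowest and serotonin highest. The log2 ratio of pMA to PIP cells was 1.88 (3.67-fold), and over the 9 probes with a ratio it lay between 1.37 and 2.30, each past 2-fold. The 3 probes nearest the 5′ end were too dim to measure in PIP cells. The zinc finger probe, for example, gave 13.9, 67.3, 181 and 57.2 units, which makes its ratio of 2.30 a lower bound.

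KLF15, known in fat and muscle for its control of amino acid and glucose metabolism, was covered by a single probe. It gave 542 units in PIP cells, 1015 in pMA, 3467 after serotonin and 1835 after TNF-α. PIP cells were lowest and serotonin highest, and no neighbouring arrays lay within the error. The log2 ratio of pMA to PIP cells was 1.01, just past 2-fold, and it was 0.92 with another background correction and 0.66 with scaling to the array median.

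Among the other members, KLF4 and KLF7 were lower in pMA at each of their probes. KLF4 gave 5213 units in PIP cells, 3224 in pMA, 5946 after serotonin and 3657 after TNF-α. PIP cells and serotonin formed a high pair and the other arrays a low pair, and the arrays within a pair lay within the error. The log2 ratio of pMA to PIP cells was -0.59, with 7 probes between -0.90 and -0.24, the last of which is smaller than the shift of 0.35 that spike-in scaling gave each ratio. KLF7 gave 2607 units in PIP cells, 1431 in pMA, 766 after serotonin and 1803 after TNF-α. PIP cells were highest and serotonin lowest, while pMA and TNF-α lay within the error. The log2 ratio of pMA to PIP cells was -0.76, with 4 probes between -1.39 and -0.66, and 1 of them passed 2-fold.

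KLF2, KLF6 and KLF12 had probes on both sides of 0 in the comparison of pMA with PIP cells. KLF2 had log2 ratios of 1.04 at position 404 and -0.18 at position 1549. KLF6 gave 0.54 at position 351 and -0.84 at position 2936, and KLF12 gave 0.39 and -0.59. No direction is therefore given for these genes. KLF10 had a log2 ratio of 0.06 at the representative probe and 2.12 at the probe nearest the 5′ end, with 134 units in PIP cells, 544 in pMA, 359 after serotonin and 243 after TNF-α. That probe was highest in pMA, and all its arrays were apart by more than the error. It is printed because, of the measured member probes, its ratio here lay furthest from that of its gene's representative probe (lower case, with no base marked).
KLF10: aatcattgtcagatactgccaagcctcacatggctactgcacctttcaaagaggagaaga

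**Figure D2:**
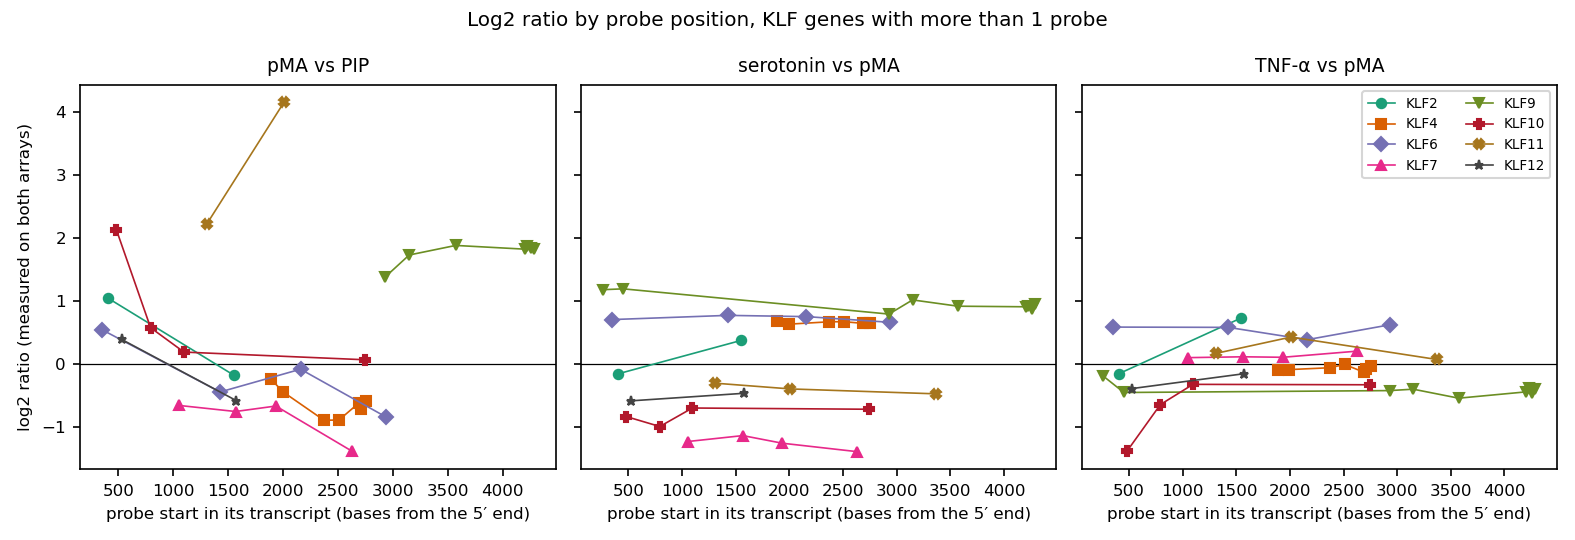
Log2 ratio (y axis) of each KLF probe measured on both arrays, against the start of the probe in its transcript (x axis, bases from the 5′ end), with 1 line per gene and 1 panel per comparison. The lines of KLF7 and KLF9 join probes numbered on different transcript records, so distances along these lines are not comparable. The KLF7 probes drawn at 1567 and 1934, for example, share 49 bases. In pMA against PIP the lines of KLF2, KLF6, KLF10 and KLF12 start above 0 and end lower, while after serotonin the lines of KLF4 and KLF6 are nearly level.

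Position along the transcript went with these differences. In 8 member transcripts with measured probes at least 300 bases apart, the measured probe nearest the 5′ end had the higher log2 ratio of pMA to PIP cells in 6, all but KLF9 and KLF11, and the median difference was 0.80. For these 2 genes, probes too dim in PIP cells were left out. The first KLF9 probe compared was at position 2929. Those at 261 and 453, numbered on another transcript record, had lower bounds of 1.95 and 2.30, against 1.83 at the last probe. The last KLF11 probe compared was at position 2010. Over 2172 transcripts of the array the first probe was higher in 56.5%, with a median difference of 0.09. It was 58.4% where the first probe was the dimmer one and 48.9% where it was the brighter one. For TNF-α against pMA the first probe was higher in 1 of 8 member transcripts and in 56.0% of all transcripts. The part of probe brightness or position in the member values was not tested.

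After serotonin, KLF15 was higher and KLF7 lower than in unstimulated pMA by at least 2-fold. These were 2 of 10 members, against 6.82% of 19095 gene names (2.08% higher and 4.73% lower). With spike-in scaling KLF9 joined them at 1.02, which gave 2 higher and 1 lower, against 6.54% of all gene names. KLF9, KLF6 and KLF4 were higher by less than 2-fold, and KLF10 and KLF12 lower by less than 2-fold. The median log2 ratio of the members was 0.33, against 0.01 for all gene names, and the median size without sign was 0.68 against 0.28. By probes, 9 of 38 passed 2-fold, against 6.92% of all probes, and these were 4 probes of KLF9, 4 of KLF7 and the KLF15 probe.

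KLF15 stood at a log2 ratio of 1.53 after serotonin (2.89-fold), and 130 gene names had a higher one. KLF9 followed at 0.91 (1.88-fold), and its 10 probes lay between 0.79 and 1.25. KLF6, an early factor known to repress the preadipocyte gene DLK1, gave 41237 units in PIP cells, 28049 in pMA, 56410 after serotonin and 48869 after TNF-α. pMA was the lowest array at this probe, and PIP cells, TNF-α and serotonin lay within the error of each other, while other KLF6 probes had PIP cells lowest or highest. Its log2 ratio after serotonin was 0.77, with 4 probes between 0.66 and 0.77. KLF4 had a log2 ratio of 0.64, and its 7 probes lay between 0.63 and 0.67, with an SD of 0.02. The probes of KLF4 and KLF6, which were spread in the comparison of pMA with PIP cells, thus gave nearly the same value here.

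On the lower side, KLF7 had a log2 ratio of -1.14 after serotonin (2.21-fold), and all 4 probes passed 2-fold, between -1.40 and -1.14. KLF10 gave 13101 units in PIP cells, 12705 in pMA, 9095 after serotonin and 11771 after TNF-α. Serotonin was lowest, but each neighbouring pair in the order lay within the error. The log2 ratio was -0.72, and all 4 probes were lower, between -0.997 and -0.70. KLF12, a repressor that recruits CtBP, gave 797, 493, 420 and 516 units in the same order of arrays. PIP cells were highest at this probe, while at the other probe pMA was highest, within the error of PIP cells. The log2 ratio of KLF12 after serotonin was -0.47, with -0.59 at the other probe. KLF11 was at -0.40, with 3 probes from -0.48 to -0.31, all within the error.

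After TNF-α, no member differed from unstimulated pMA by 2-fold, against 3.56% of 19782 gene names (2.21% higher and 1.34% lower). With 1 array per condition this count has no test. The median size of the member ratios was 0.49, against 0.20 for all gene names. KLF2, which restrains inflammatory genes in endothelial cells and macrophages, gave 456 units in PIP cells, 374 in pMA, 570 after serotonin and 723 after TNF-α. TNF-α was highest at this probe with a log2 ratio of 0.73, but the other KLF2 probe gave 83.3, 159, 168 and 166 units and a ratio of -0.16. KLF15 was at 0.63 and KLF6 at 0.58, with 4 probes from 0.38 to 0.62. KLF9 was at -0.55, and each of its 9 measured probes was lower, from -0.55 to -0.20. The probe nearest the 5′ end was not well above background in pMA, and its value of 0.45 lay within the error. KLF10 was lower at each of 4 probes, from -1.39 to -0.33, and its probe at position 482 was the 1 member probe of 38 past 2-fold, against 3.52% of all probes. At their representative probes KLF4 (-0.04), KLF7 (0.11), KLF10 (-0.33) and KLF12 (-0.16) lay within the error, as did 3 of the 9 measured KLF9 probes.

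KLF1 was near background throughout. Its brighter probe gave 13.8 units in PIP cells and 18.3 in pMA, too dim to measure on both, 28.0 after serotonin and 33.2 after TNF-α. Relative to the faintest signal well above background on the pMA array, its level was 1.23-fold higher after serotonin and 1.48-fold higher after TNF-α. Neither stimulated array differed from pMA by more than the error at this probe, so these values are not firm minima. No ratio was formed for pMA against PIP cells. The order of neighbouring arrays was within the error. HBB, the beta-globin gene that KLF1 controls in red blood cells, was not well above background on any array.

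**Figure D3:**
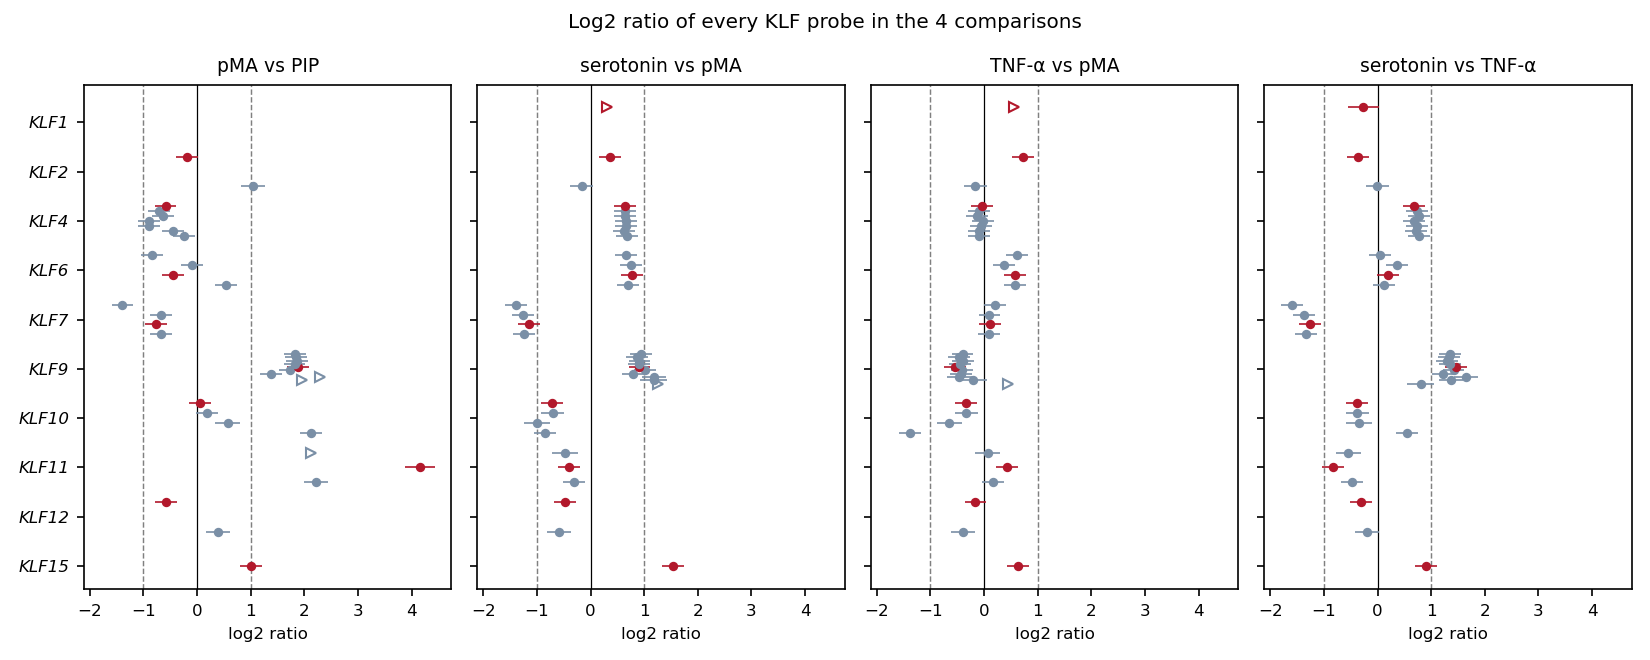
Log2 ratio of each KLF probe (x axis) by gene (y axis) in the 4 comparisons, with the error of the scanner's model as bars, lower bounds as open triangles, the representative probe in red and dashed lines at 2-fold. The probes of KLF4, KLF7 and KLF9 cluster after serotonin, whereas those of KLF10 and KLF11 spread in pMA against PIP.

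The stimulated arrays were also compared directly. KLF9 was higher and KLF7 lower after serotonin than after TNF-α by at least 2-fold, 2 of 10 members against 6.9% of 21862 gene names (1.83% higher and 5.07% lower). KLF9 had a log2 ratio of 1.46 (2.75-fold), with 10 probes from 0.80 to 1.65, and 124 gene names had a higher one. KLF7 had a log2 ratio of -1.25, with 4 probes from -1.60 to -1.25, and 667 gene names had a lower one. KLF15 (0.90, or 1.02 and so past 2-fold with scaling to the array median, which gave 2 higher and 1 lower) and KLF4 (0.68, with 7 probes from 0.68 to 0.77) were higher after serotonin by less than 2-fold, and KLF11 (-0.82) was lower. With scaling to the array median, 6.64% of all gene names passed 2-fold. By probes, 13 of 38 passed 2-fold, against 7.31% of all probes, and 9 of these belonged to KLF9 and 4 to KLF7. Both stimulations share the unstimulated pMA array, so their ratios to pMA are not independent of each other. Side by side, KLF9 was at 0.91 after serotonin and -0.55 after TNF-α, KLF4 at 0.64 and -0.04, KLF7 at -1.14 and 0.11, and KLF15 at 1.53 and 0.63.

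**Figure D4:**
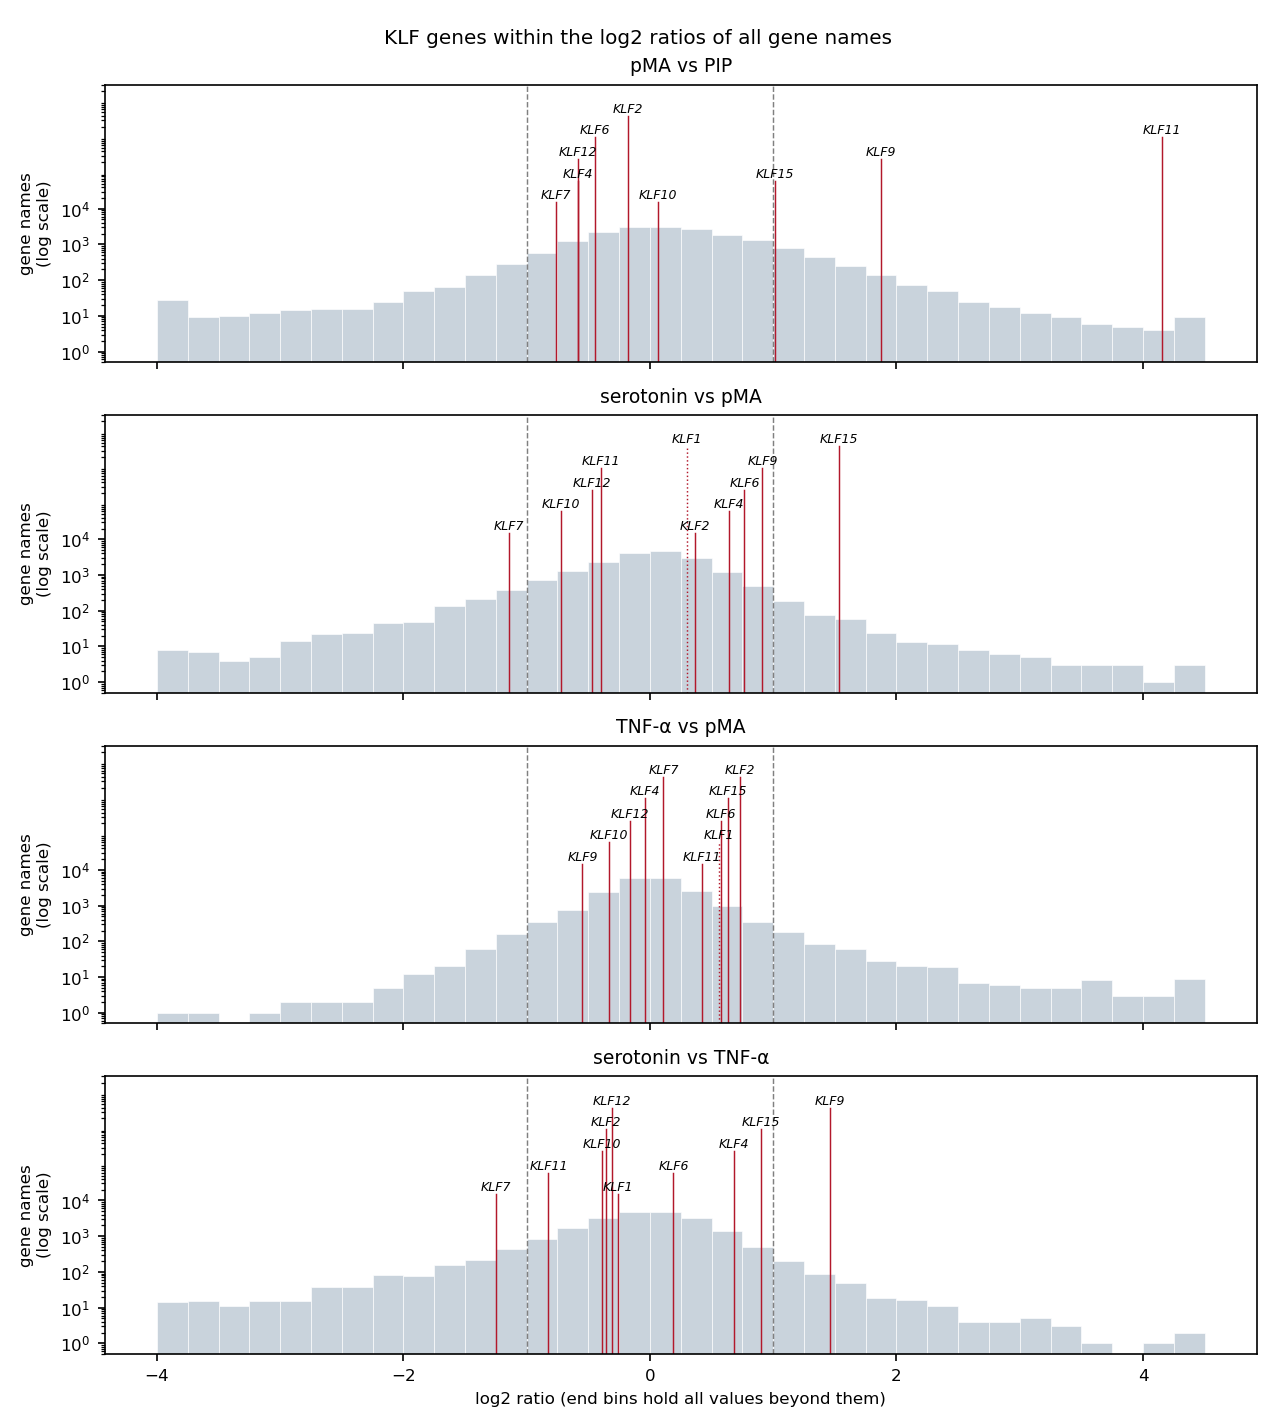
Distribution of the log2 ratios of all gene names (x axis; number of gene names on a log y axis, in bins of 0.25, of which the outermost hold all values beyond them) in the 4 comparisons, with each KLF gene at the ratio of its representative probe. Dotted lines mark lower bounds and dashed lines 2-fold. KLF11 lies at the far right in pMA against PIP, and KLF15 and KLF9 lie to the right after serotonin.

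The genes with the most similar pattern over the 4 arrays were sought among 4695 gene symbols that were well above background on every array, by the root mean square distance of mean-centred log2 values. Nearest to KLF9 was BCL2L1, an inhibitor of apoptosis, at a distance of 0.12, followed by LHX3 and HCST. Nearest to KLF15 were P2RY2 (0.17), KIAA1211L (0.18) and CITED2 (0.22). KLF7 was matched most closely by SYNC (0.06), PLOD2 (0.08) and WARS (0.09). For KLF11 the nearest genes were GPM6B (0.29), ADAMTS1 (0.41) and ANGPTL4 (0.46). With only 4 arrays this likeness is a description.

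Other relatives and partners of the family were counted in the same way. Of 16 other KLF and SP genes, the array held 8, of which 7 gave a ratio, and none reached 2-fold in any of the 4 comparisons. The largest was KLF8, at 0.81 in pMA against PIP cells, -0.67 after serotonin and -0.60 after TNF-α. KLF5, an activator of PPARG in early adipogenesis, was at 0.08, 0.22 and 0.73. Of 20 cofactors and modifiers of KLF proteins, 12 had a ratio and none reached 2-fold, although the corepressor SIN3A (-0.90) came near in pMA against PIP cells, as did the ubiquitin ligase WWP1 (-0.999), whose 6 probes ran from -0.999 to 0.35.

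Of 16 adipogenic factors linked to KLF proteins, 10 could be compared in pMA and PIP cells. CEBPB (1.71), VDR (1.61), ESR1 (1.23) and PPARG (1.07) were higher by at least 2-fold and none was lower by that much. After either stimulation none of them reached 2-fold at its representative probe. CEBPD, an early adipogenic factor, was at 0.90 after serotonin, with 5 probes from 0.40 to 1.31. PPARG, the main regulator of adipocyte identity, was at 0.90 after TNF-α, with 3 probes from 0.67 to 0.90.

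Among glucocorticoid-induced genes, to which KLF9 and KLF15 belong by general knowledge, all 11 with a ratio were higher in pMA than in PIP cells. The median log2 ratio was 1.93, against 0.12 for all gene names. Of the 11, 6 were higher by at least 2-fold, against 9.94% of all gene names. DDIT4, at 0.06, was the one gene below the median of all gene names. The largest measured values were those of the protease ADAMTS1 (4.73), ANGPTL4 (3.94) and FKBP5 (2.53), a cochaperone of the glucocorticoid receptor. PDK4, a brake on glucose oxidation, was too dim to measure in PIP cells, so its pMA level was at least 28.1-fold higher. After serotonin 9 of 11 were higher. NFKBIA (1.97) and PDK4 (1.91) were the 2 past 2-fold, against 2.08% of all gene names higher. After TNF-α the median was -0.10, with NFKBIA, the inhibitor of NF-κB that NF-κB itself induces, at 3.04 and PDK4 at -1.49. Between the stimulations, PDK4 was at 3.40 and NFKBIA at -1.07, serotonin against TNF-α. Dexamethasone was given together with insulin, octanoate and oleate, so their effects cannot be told apart. The part of dexamethasone in the KLF values was not tested.

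Of 12 TGF-β early genes, 10 had a ratio. None reached 2-fold in pMA against PIP cells, although KLF10 and KLF11 are counted with such genes. After serotonin 8 of 10 were lower, 1 of them, SMAD6, by only -0.08, with a median of -0.47 against 0.01 for all gene names. CYR61 was at -0.98 and CTGF at -0.91. KLF10 was at -0.72 there and KLF11 at -0.40. After TNF-α none reached 2-fold, and the median was 0.10.

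Of 21 textbook KLF target genes, 14 could be compared in pMA and PIP cells and 15 after stimulation. MYC was at -1.65 and CCL2 at 1.21 in pMA against PIP cells, and MYC was at 1.24 after serotonin. LPL, which frees fatty acids from lipoproteins, was at 2.41 after serotonin and 1.28 after TNF-α, and COL1A1 was at -1.41 after serotonin. THBD, the endothelial anticoagulant receptor controlled by KLF2 and KLF4, was at least 2.57-fold higher after serotonin than in pMA. After TNF-α the adhesion molecule ICAM1 (1.77) and the chemokine CCL2 (1.49) were higher, and VCAM1 was at least 3.37-fold higher. By at least 2-fold, 1 target was higher and 1 lower in pMA against PIP cells. The shares of all gene names were 9.94% and 3.56%. After serotonin 3 were higher and 2 lower, against 2.08% and 4.73% of all gene names. After TNF-α 4 were higher and 0 lower, against 2.21% and 1.34%.

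The labelled cell type was checked against markers. Of 12 adipocyte markers, 9 were well above background in PIP cells, pMA and after serotonin and 10 after TNF-α, and their summed level on the scaled log2 scale was 2.75 in PIP cells, 4.33 in pMA, 5.49 after serotonin and 4.77 after TNF-α. The defining adipocyte genes ADIPOQ, PLIN1 and CEBPA were not well above background in pMA. In pMA against PIP cells 9 of 10 adipocyte markers with a ratio were higher and 1 lower. Of these, 5 were higher by at least 2-fold, against 9.94% of all gene names, and the lower bound for FABP4 was 8.48-fold. After serotonin 6 of 9 were higher and 3 lower. By at least 2-fold 2 were higher and 1 lower, against 2.08% and 4.73% of all gene names. LPL was at 2.41 there, CD36 at 1.47 and FABP4 at -2.77. Of 7 preadipocyte or fibroblast markers, 6 or 7 were well above background, with a summed level between 8.76 and 9.16. Most of this sum was VIM, at 8.55 to 8.89. Of 7 skeletal muscle markers, 4 were well above background in PIP cells and 5 on the other arrays, with a summed level of at most 9.36 and its lowest value, 7.45, after serotonin. This sum was set by 1 gene, ACTA1, at 9.33 in pMA and 7.40 after serotonin, and MYOD1 and MYF5 were not well above background on any array. Macrophage markers (3 or 4 of 5 well above background) summed to between 0.76 and 1.87, endothelial markers (2 or 3 of 5) to between -1.05 and 0.67 and erythroid markers (2 or 3 of 4) to between -2.77 and -1.69. The part of cell composition in the KLF values was not tested.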

How the data were processed

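The deposited scanner files hold, for each spot, the processed intensity with its error, from which the background had been subtracted by Agilent Feature Extraction 10.7.3.1 per the submitters' processing notes, and flags of a spot being well above background or an outlier (codes of 0 and 1). The authors' value table holds a linear ratio, each deposited intensity divided by the 75th percentile of its array. Parts of the methods speak of a mouse array or of a pair of dyes, but the files are those of a porcine array scanned in 1 color, Cy3. The t-test of the methods could not be run on 1 array per condition.

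Control and outlier spots were left out (12 on the PIP array, 1 on pMA, 3 after serotonin and 4 after TNF-α, none of a KLF probe), and the spots of a probe were averaged. Deposited intensities were divided by the 75th percentile of each array and log2 transformed. A gene was represented by its brightest probe. Where 1 array was dim, the ratio is given as a lower bound: the dim value was taken as the higher of itself and the faintest signal well above background on that array. Such a bound does not allow for noise in the dim value. Repeated spots had a log2 SD of 0.11 to 0.18. Alternatives covered background correction (limma 3.58.1 in R 4.3.3), scaling, filters, gene summary, the authors' table and the cutoff. Python 3.11.15 with pandas 2.3.3, numpy 2.4.6 and matplotlib 3.10.9 was used. The ratio code was tested on simulated data.

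The KLF members and the gene lists, which were written from general knowledge, were chosen with earlier results of these data known. All members were named, with the 3 nearest genes of the 4 members of the largest range, and 2 or 3 of the largest differences of each list. Other list genes that were named, among them KLF5, DDIT4, SMAD6, ESR1 and those with lower bounds, were chosen after their values were seen. No genome, promoter or protein sequence was used here. The value of 1 gene of the lists is not reported here.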

Additional observations from a re-analysis of the deposited data

How the results depend on the processing

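Of 39 log2 ratios of KLF members, 36 kept their sign under every alternative that gave a value (9 settings, of which KLF1 had no value under 1 or 2), and so did all 7 that reached 2-fold. The exceptions were KLF2 (-0.53 to 0.43) and KLF10 (-0.29 to 0.41) in pMA against PIP cells and KLF4 after TNF-α (-0.13 to 0.05). KLF11 in pMA against PIP cells was lowest, at 2.22, with the median over its probes, and with normexp background correction KLF15 was at 0.92, which left 2 members past 2-fold. The share of all gene names past 2-fold there was 4.45%, against 13.5% in the main setting. Scaling to the array median moved the median over all gene names by -0.35 in pMA against PIP cells, gave 2 members higher and 1 lower there in place of 3 and 0, and gave 2 higher and 1 lower for serotonin against TNF-α, where that median moved by 0.12. In these comparisons 13.2% and 6.64% of all gene names then passed 2-fold. Scaling to spike-in controls moved the median over all gene names by 0.36 in pMA against PIP cells, where 3 members were higher, and by 0.10 after serotonin, where 2 members were then higher and 1 lower. The shares of all gene names past 2-fold were then 22.9% and 6.54%. Without the filter on dim probes no ratio was rescaled, but the median over the larger set of gene names differed by 0.30 in pMA against PIP cells and by -0.14 after serotonin. At 1.5-fold the members that differed were 6 in pMA against PIP cells, 6 after serotonin, 2 after TNF-α and 5 between the stimulations. The shares of all gene names were then 34.05%, 20.97%, 12.14% and 21.13% in the same order. Of the 6 in pMA against PIP cells, KLF4 (1.502-fold) and KLF12 (1.501-fold) only just passed. KLF12 had probes on both sides of 0 there. At 4-fold the members were 1, 0, 0 and 0, against 1.84%, 0.98%, 0.51% and 1.25% of all gene names. A lower or higher cutoff counts more or fewer genes.

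No paired analysis was possible because each condition has 1 array, and leaving out an array removes a condition. Members near background (KLF1, KLF11 in PIP cells and the 5′ probes of KLF9) have only bounds or uncertain sizes, and the error of the scanner's model says nothing about cultures.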
